A study of Mus musculus with 5 samples.

Results

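Neutrophils of chemotherapy-treated mouse colon tumors were described in single-cell RNA-seq libraries. A cell was counted as a neutrophil when it held at least 4 unique molecular identifiers (UMIs, each 1 captured RNA molecule) of Csf3r, Cxcr2, Retnlg, Hdc and Il1r2 together, and more of these than of the macrophage genes C1qa, C1qb, C1qc, Csf1r and Adgre1. This left 647 of 7396 kept cells (8.75%) in 4 treated libraries, where a kept cell had at least 500 genes and at most 15% mitochondrial counts. The members were thus chosen by the counts of 10 genes in these same cells, so the levels of those genes are a description, and no gene was tested between neutrophils and other cells. At the edge of the rule, 25 members held exactly 4 UMIs of the 5 genes and 54 cells with 3 UMIs lay just outside.

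Neutrophils are short-lived granulocytes that leave the bone marrow under granulocyte colony-stimulating factor, whose receptor is Csf3r, and follow CXC chemokines through the receptor Cxcr2. They store antimicrobial proteins in granules and carry the S100a8/S100a9 heterodimer, known as calprotectin, at high levels in the cytosol. In an inflamed colon they enter the mucosa early and release interleukin-1β, chemokines and proteases.

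The libraries came from inDrop, a droplet method, and held dissociated tumors of wild-type (WT) mice that had received the carcinogen azoxymethane and the irritant dextran sulfate sodium (AOM/DSS) and then the cytotoxic drugs 5-fluorouracil and Irinotecan. The mice were of C57BL/6J or mixed C57BL/6J;129 background and 6 to 12 weeks old when experiments began. Day 1 had 2 libraries (replicates 1 and 2), and day 3 and day 6 had 1 each. Day 1 is compared with day 3 and day 6 together, called late, and it was not clear from the sources from which event the days are counted. An untreated library of normal colon, made by a dissociation that enriches stroma, had 1095 kept cells and entered no comparison. All treated libraries carry AOM/DSS and both drugs, so none of the differences between days is a difference between treated and untreated tumors. Library index structure also differed, single in day 1 replicate 1 and day 3 and dual in day 1 replicate 2 and day 6.

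The treated libraries held 752, 2450, 1419 and 2830 barcodes and 5132360, 16904947, 6659486 and 16079367 UMIs, in the order day 1 replicate 1, day 1 replicate 2, day 3 and day 6. The same order is used for all sets of 4 values. Neutrophils contributed 325059, 1778725, 343902 and 206121 of these UMIs. The libraries of each group are biological replicates by the study's account, although the labels tie no library to an animal. Between any pair of the 5 libraries 4 to 41 kept barcodes were shared, and no barcode of a neutrophil was. Scrublet called 3, 3, 6 and 0 cells as doublets, too few to rely on, and no doublets were removed. The Y-linked genes Ddx3y and Eif2s3y had 0 counts in the neutrophils of both late libraries, against 25 and 168 counts of Ddx3y and 19 and 122 counts of Eif2s3y in the day 1 libraries, so sex of the mice and day cannot be told apart.

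The promoters of 4 genes that lead the neutrophil profile without being in the rule are given for reference: S100a8, S100a9, Il1b and Cxcl2, whose levels are described further on. Each run is the 250 bases before the RefSeq gene start in the mouse build GRCm38.p6, written 5′ to 3′ on the gene's strand. These are chr3:90668821-90669070 on the plus strand for S100a8, chr3:90695722-90695971 on the minus strand for S100a9, chr2:129371140-129371389 on the minus strand for Il1b and chr5:90903649-90903898 on the plus strand for Cxcl2. Capitals mark letters that match a C/EBP motif (TTNNGNAA, on either strand) or, in Cxcl2 only, the longer run of an NF-kB motif.
S100a8: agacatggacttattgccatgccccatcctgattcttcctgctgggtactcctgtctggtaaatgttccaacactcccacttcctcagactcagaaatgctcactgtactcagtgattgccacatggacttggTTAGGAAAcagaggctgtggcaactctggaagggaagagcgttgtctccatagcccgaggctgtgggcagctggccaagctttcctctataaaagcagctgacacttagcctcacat
S100a9: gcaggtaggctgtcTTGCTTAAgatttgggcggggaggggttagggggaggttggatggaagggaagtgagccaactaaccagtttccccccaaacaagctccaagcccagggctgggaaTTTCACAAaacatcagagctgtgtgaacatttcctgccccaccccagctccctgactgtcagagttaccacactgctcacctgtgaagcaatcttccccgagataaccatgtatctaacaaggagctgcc
Il1b: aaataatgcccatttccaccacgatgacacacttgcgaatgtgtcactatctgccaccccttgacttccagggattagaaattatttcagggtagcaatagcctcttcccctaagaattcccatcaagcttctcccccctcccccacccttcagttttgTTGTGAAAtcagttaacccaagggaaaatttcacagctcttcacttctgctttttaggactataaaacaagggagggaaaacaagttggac
Cxcl2: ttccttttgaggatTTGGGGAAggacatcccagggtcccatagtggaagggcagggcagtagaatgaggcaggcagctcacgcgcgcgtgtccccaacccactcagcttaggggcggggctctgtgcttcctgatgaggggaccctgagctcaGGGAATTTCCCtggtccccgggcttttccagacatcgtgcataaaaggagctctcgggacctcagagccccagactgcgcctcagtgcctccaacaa
C/EBP factors direct granulocyte differentiation and NF-kB drives inflammatory transcription. S100a8, Il1b and Cxcl2 each held 1 C/EBP match and S100a9 held 2, and Cxcl2 held 2 overlapping NF-kB matches. The C/EBP letters are common, since 9969 of 27025 promoters of this length (36.89%) hold them, and 7 of the 15 leading genes with a RefSeq entry, of 20, did so. The NF-kB motif was in 1894 promoters (7.008%) and in 2 of the 15, Csf3r and Cxcl2. A match is a description of the letters and says nothing about binding.

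Neutrophils made up 11.1% of kept cells in day 1 replicate 1 (95% exact binomial interval 8.94 to 13.6), 19.0% in day 1 replicate 2 (17.5 to 20.6), 4.44% at day 3 (3.43 to 5.64) and 1.56% at day 6 (1.13 to 2.08), from 83, 457, 63 and 44 cells. Both late libraries lay below both day 1 libraries, and the intervals, which cover counting error only, did not overlap. The mean share was 15.1% at day 1 and 3.00% late, a difference of -12.1 percentage points. With 2 libraries against 2 the two-sided exact permutation test gave p = 0.333, which is the smallest p this design allows. Within the single index libraries the difference was -6.66 points and within the dual index libraries -17.5 points, each from 1 library against 1.

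The share depends on what it is taken of. Of cells with a UMI of Ptprc (CD45, carried by all leukocytes), neutrophils were 44.3%, 64.7%, 31.4% and 6.70%, lower in both late libraries. The day 3 value is 11 of 35 cells, and its exact interval (16.9 to 49.3) overlapped that of day 1 replicate 1 (35.1 to 53.9). Per macrophage, counted by the mirrored rule in 33, 82, 11 and 104 cells, there were 2.52, 5.57, 5.73 and 0.423 neutrophils. On this ratio day 3 was above both day 1 libraries and only day 6 was below, the mean difference was -0.969, and the exact permutation p was 1.0. Day 3 held few macrophages as well as few neutrophils. When each cell was thinned to 1000 UMIs, which left out 172 shallower cells of day 6, the shares were 9.22%, 16.0%, 0.987% and 0.829%.

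**Figure D1:**
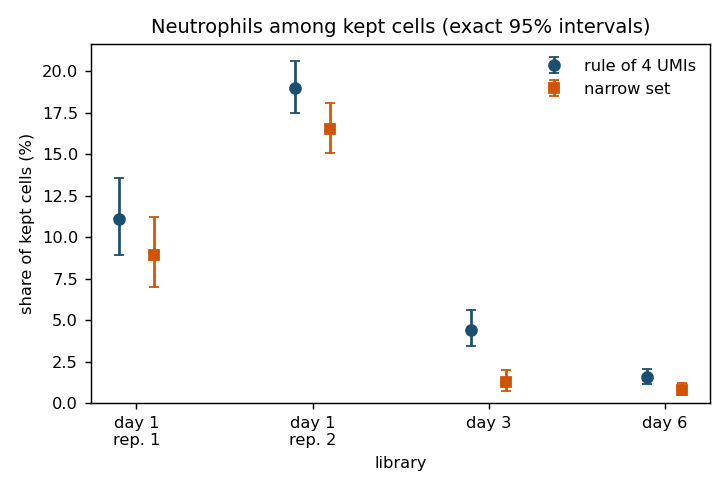
Share of neutrophils among kept cells (percent, vertical axis) in each of the 4 treated libraries, with exact 95% binomial intervals as bars. Circles show the rule of 4 UMIs and squares the narrow set defined in the text. Both day 1 libraries (11.1% and 19.0%) lie above day 3 (4.44%) and day 6 (1.56%).

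The label neutrophil was checked against S100a8 and S100a9, which the rule does not use. At least 1 UMI of either was found in 90.4%, 92.1%, 93.7% and 70.5% of the members and in 24.1%, 27.4%, 27.8% and 7.26% of all other kept cells, at median depths of 2395, 2272, 3817 and 2361 UMIs in members and 3199, 4492.5, 3118 and 2920.5 in others. The gap between members and others was wide in every library at like or lower depth of the members, except at day 3, where members were deeper. S100a8 reached 2344, 2018, 270.4 and 1247 CPM (each library's neutrophil counts summed and scaled to a common total), against at most 43.2 CPM in macrophages and 23.9 CPM in all other cells of the same libraries. S100a9 stood at 4513, 3142, 1314 and 2227 CPM, with at most 87.4 and 68.6 CPM in macrophages and other cells. Both genes were high in every library, and lowest at day 3.

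The members were less uniform late than at day 1. Their median sum of the 5 rule genes was 22, 22, 7 and 11 UMIs, and 10, 32, 16 and 20 members rested on only 1 or 2 of the 5 genes. Of these, 1, 5, 0 and 8 rested on Il1r2 alone, the decoy receptor for interleukin-1, which other cells also make. A Ptprc UMI was present in 61.4%, 79.0%, 17.5% and 56.8% of the members, so at day 3 the leukocyte marker was seen in few of them. A narrow set was therefore defined after the values had been seen: members with at least 3 of the 5 rule genes and at least 0.5% of UMIs from 8 myeloid genes (Tyrobp, Fcer1g, Srgn, Ptprc, Alox5ap, Clec4d, S100a8 and S100a9). It held 67, 397, 18 and 23 cells, or 8.96%, 16.5%, 1.27% and 0.814% of kept cells, in the same order of libraries. S100a8 and S100a9 help to choose this set, so their levels in it support nothing.

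The 20 genes with the highest ratio of neutrophils over all other kept cells were, in this order, S100a9, Retnlg, S100a8, Csf3r, Hdc, Il1r2, Cxcr2, Il1b, Mmp9, G0s2, Srgn, Selplg, Trem1, Cxcl2, Dusp1, Mir142hg, Fam65b, Lcp1, Arg2 and Cyp4f18. Retnlg, Csf3r, Hdc, Il1r2 and Cxcr2 are the rule itself. Among 12625 genes with at least 10 counts, 27 (0.214%) were at least 4-fold higher in neutrophils than in other cells in all 4 libraries, and 32 (0.253%) were at least 4-fold higher than in macrophages in both day 1 libraries. Below macrophages by the same fold were 28 genes (0.222%). The cells were chosen on genes of the same counts, so these numbers are a description. Macrophages were deeper at day 1, with medians of 6212 and 5322 UMIs.

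Of the alarmin list 4 of 8 genes, and of the secondary and tertiary granule list 2 of 12, were at least 4-fold above macrophages in both day 1 libraries. Lcn2, the iron-scavenging lipocalin of secondary granules, stood at 941, 544, 532 and 1509 CPM in neutrophils and at 86.5, 27.0, 109 and 35.9 CPM in macrophages. Mmp8, the neutrophil collagenase, stood at 283, 283, 58.2 and 199 CPM against 25.1, 48.6, 0 and 21.9 CPM. Mmp9, gelatinase B of the tertiary granules, stood at 492, 629, 198 and 354 CPM against 83.7, 219, 21.9 and 3.12 CPM. All 3 were higher in neutrophils than in macrophages in each of the 4 libraries. Of the primary granule genes, made by marrow precursors, Mpo had 0, 3, 1 and 0 counts, Prtn3 1, 2, 0 and 2 counts, and Elane and Ctsg 0 counts in the neutrophils of every library. Ctsc, the protease that activates Prtn3, Elane and Ctsg and that macrophages also make, had more counts, at 83.1, 159, 137 and 243 CPM. It was at least 4-fold lower than in macrophages in both day 1 libraries, and lower than in other cells in every library.

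Among receptors and adhesion genes, some were higher in neutrophils and others were at like levels in macrophages. Selplg, an adhesion glycoprotein that binds P-selectin on activated endothelium, stood at 501, 524, 174 and 432 CPM against 83.7, 117, 131 and 150 CPM in macrophages. C5ar1, which senses complement C5a, stood at 397, 406, 108 and 252 CPM in neutrophils and at 123, 320, 131 and 331 CPM in macrophages, so the order of the cell types differed between libraries. Cd14, the co-receptor for lipopolysaccharide, was shared too, at 1550.5, 1671, 552 and 3716 CPM against 1211, 2066, 809 and 2531 CPM.

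Inflammatory mediators were high in both myeloid cell types. Il1b stood at 2886, 2015, 564 and 1912 CPM in neutrophils and at 1216, 1344, 131 and 1433 CPM in macrophages. Cxcl2, a ligand of Cxcr2, stood at 1412, 1644, 250.1 and 2562 CPM against 839.6, 1430.4, 219 and 663 CPM. Both transcripts were more abundant in neutrophils than in macrophages in all 4 libraries, and lowest at day 3 in both cell types. Osm, a cytokine of the interleukin-6 family, stood at 258, 205, 119 and 582 CPM against 66.9, 322, 0 and 231 CPM, with the order reversed in day 1 replicate 2. Of the 20 chemokine and cytokine genes listed, Cxcl2, Il1b and Osm were at least 4-fold above all other cells in every library.

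Arg2, the mitochondrial arginase, and Slc2a3, the glucose transporter GLUT3, set neutrophils apart among metabolic genes. Arg2 stood at 317, 467, 72.7 and 131 CPM against 13.9, 30.6, 0 and 12.5 CPM in macrophages. Slc2a3 stood at 215, 219, 43.6 and 58.2 CPM in neutrophils. Cebpb, the C/EBP factor of emergency granulopoiesis, stood at 1135, 1132, 346 and 679 CPM against 390.5, 882, 262 and 709 CPM in macrophages and 108 to 116 CPM in other cells. Cebpb was thus above other cells in every library but not above macrophages at day 6.

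Genes of antigen presentation lay on the other side. Of 7 genes of the major histocompatibility complex (MHC) class II list, 6 were at least 4-fold lower in neutrophils than in macrophages in both day 1 libraries, among them H2-Aa at 123 and 304 CPM against 3796 and 3136 CPM. Of 10 macrophage markers, 8 were lower by the same fold, which includes the genes of the rule. Lyz2, lysozyme M, made by both cell types, stood at 1679.7, 1258, 337 and 1029 CPM in neutrophils and at 4926, 10581, 2470.2 and 6835 CPM in macrophages. RNA of the surrounding epithelium was present in the members: Krt8 of columnar epithelium stood at 1599.7, 3182, 2082 and 1727 CPM in members and at 1945, 3506, 2293 and 4075 CPM in other cells. What part free RNA or doublets have in the levels of such genes was not tested.

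**Figure D2:**
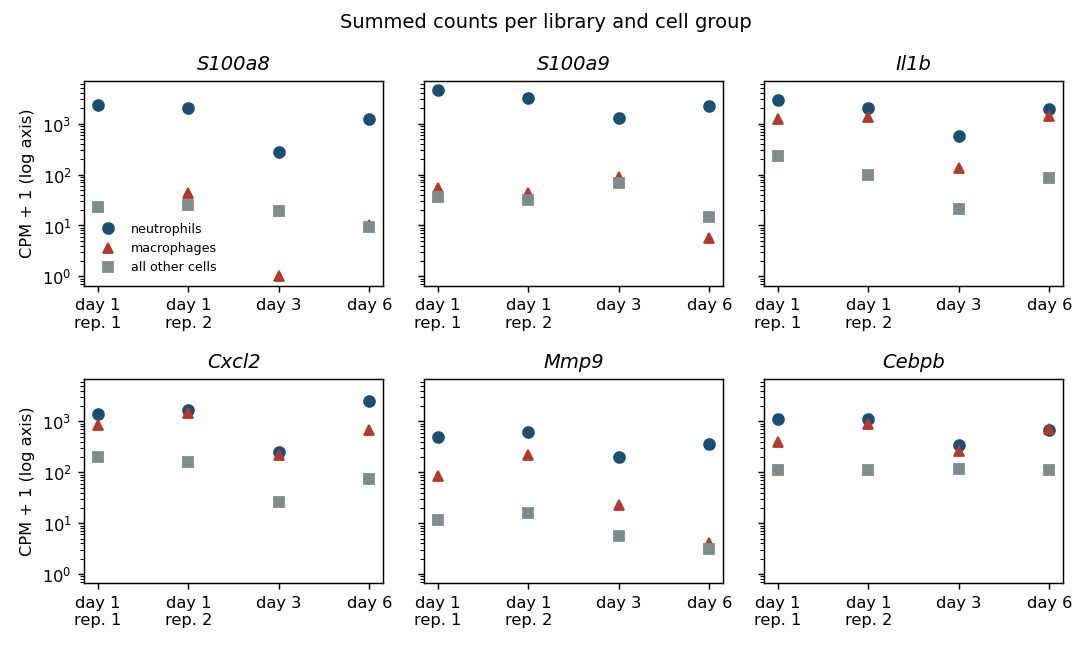
CPM plus 1 (log axis) of S100a8, S100a9, Il1b, Cxcl2, Mmp9 and Cebpb in the summed counts of neutrophils (circles), macrophages (triangles) and all other kept cells (squares), for each of the 4 treated libraries. S100a8 and S100a9 lie far above both other groups in every library, whereas Il1b and Cxcl2 in macrophages come closer.

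Leiden clustering of the 647 cells gave 8 sub-groups, described by number and leading genes. Their defining genes come from the cells clustered, so no test was made. Sub-group 1 (250 cells, 246 of them from day 1 replicate 2) was led by Mmp3, Mmp10 and Saa3, but these were detected in only 2.40% to 4.40% of its cells. Its Cxcl2 stood at 471 CPM and its Il1b at 1832 CPM. Sub-group 2 (146 cells, 136 from day 1 replicate 2) was led by Hbb-bt, G0s2, Acod1, Cxcl2 and Trem1, with Cxcl2 at 6164 CPM and Il1b at 5459.6 CPM. Neutrophils of 1 library thus included many cells with low and many with high Cxcl2. Sub-group 5 held 54 cells, 52 of them from day 1 replicate 1 (62.7% of that library's neutrophils), and had S100a9 at 8778 CPM. It was led by Fam178b, Zg16 and Hist1h2al. Zg16 was seen in 96.3% of its cells, and in other cells it stood at 1324 CPM in day 1 replicate 1 and 215 CPM in replicate 2.

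The late neutrophils lay in other sub-groups. Sub-group 3 (76 cells) held 57 of the 63 day 3 members (90.5%) and 8 of day 6, with a median of 7 rule UMIs. It was led by Ltf, Psca, Cnfn, Ppbp and Krt13. Cnfn was seen in only 7.89% of its cells and had 2 counts in all day 3 members. Ltf and Ppbp stood at 4037 and 5797 CPM in the sub-group, but at 259 and 311 CPM in the day 3 members. Among day 6 members, 1 cell held 55.4% of the Ltf, 77.8% of the Cnfn and 52.5% of the Ppbp counts. Krt13, a keratin of squamous epithelium, was seen in 94.7% of sub-group 3 cells. It stood at 4159 CPM there, against 112 and 126 CPM in sub-groups 1 and 2, and only 30.3% of sub-group 3 cells were in the narrow set. The neutrophil label was therefore weak for most day 3 members. Sub-group 6 (46 cells) held 30 of the 44 day 6 members (68.2%) and was led by H2-Aa, H2-Ab1, H2-Eb1, Il1a and Thbs1, with Cxcl2 at 6702 CPM and the summed macrophage markers at 1367 CPM. Of its cells, 43.5% were in the narrow set. Class II genes, Cd74, Mmp12, Dcstamp and Ccl24, known from macrophages and dendritic cells, are among its leading genes. Of the 44 day 6 members, 20 rested on only 1 or 2 of the rule genes, so the neutrophil label was weak for many of them as well. Summed, the 30 day 6 cells of sub-group 6 still had S100a8 at 2402 and S100a9 at 3994 CPM. Its 14 cells of day 1 replicate 2 had them at 186 and 273 CPM.

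The smaller sub-groups carried genes of other cell types. Sub-group 4 (54 cells, 45 from day 1 replicate 2) was led by Prss56, Chgb and Pnliprp2, with Lgr5 of intestinal stem cells among its leading genes, and had a median of 7217.5 UMIs. In sub-group 7 (11 cells) the leading genes Cpa3, Fcer1a, Gata2 and Ms4a2 are known from mast cells and basophils. Hdc, the histamine-forming enzyme and a rule gene, reached 5146 CPM there, S100a8 was at 141 CPM, Csf3r at 169 CPM and Cxcl2 had 0 counts. Cd200r3 and Fcer1a were seen in all 11 cells, so these 11 cells go against the name neutrophil, although the rule keeps them. In sub-group 8 (10 cells) Sox18, Emcn, Pecam1 and Plvap led, which are genes of endothelium. Whether sub-groups 4 and 8 hold doublets was not tested.

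**Figure D3:**
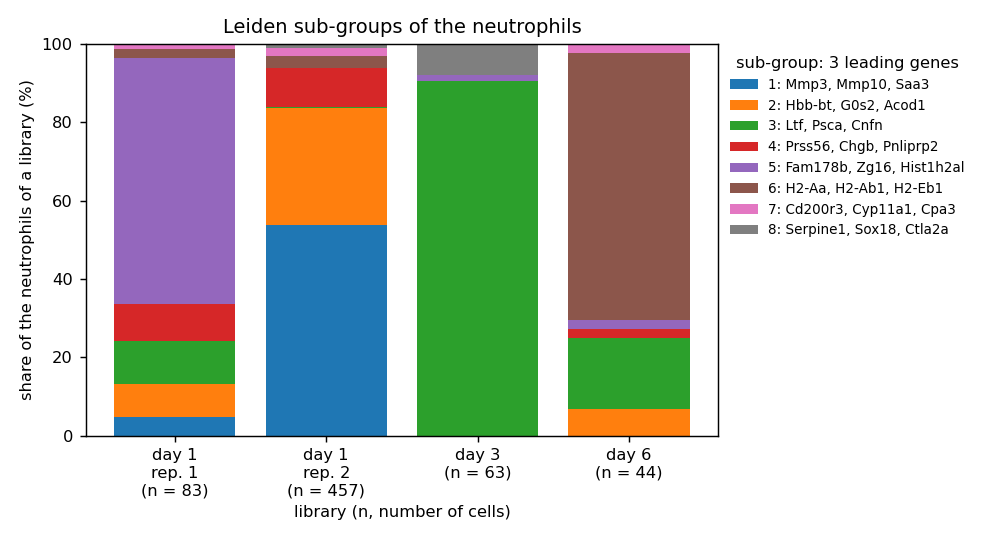
Share of the neutrophils of each treated library (percent, stacked to 100) in 8 Leiden sub-groups, each named by its 3 leading genes; n is the number of cells. Day 3 is almost wholly sub-group 3 (90.5%), day 6 mostly sub-group 6 (68.2%), day 1 replicate 1 mostly sub-group 5 (62.7%), and day 1 replicate 2 mostly sub-groups 1 and 2.

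Late and day 1 neutrophils were then compared gene by gene, on counts summed per library, with edgeR's quasi-likelihood test and Benjamini-Hochberg adjustment. None of 6260 genes tested passed an adjusted p of 0.05 (0%), and the smallest adjusted p was 0.439. At an unadjusted p under 0.05 there were 196 genes higher late (3.13%) and 350 lower (5.59%). With library index structure as a block, which sets each late library against the day 1 library of the same index, 6 genes passed: Cbr2 and Ltf higher, and Hba-a1, Hba-a2, Hbb-bs and Rpl39 lower. DESeq2 called 18 genes, 9 each way. In both late libraries 711 genes (11.4%) were above both day 1 libraries and 1800 genes (28.8%) below both. The difference depends on the late library: without day 3, 175 genes were called, and without day 6, 400 genes. In the narrow set 1 gene passed, Cbr2.

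The 10 genes of smallest p that were higher late without overlap were Cbr2, Calml3, Barx2, Pitx1, Cyp2f2, Gpnmb, Krt5, Col17a1, Cln6 and Lypd3. Cbr2, a carbonyl reductase, stood at 12.3, 8.43, 384 and 1892 CPM (log2 difference 7.06, SE 1.07, edgeR adjusted p = 0.439, and 0.0391 with the index block). In day 6, 57.9% of its 390 counts came from 1 cell. In all other cells of the same libraries it stood at 42.7, 14.4, 293 and 715 CPM. Krt5, a keratin of basal squamous cells, stood at 295, 195, 1509 and 1586 CPM in neutrophils and at 462, 504, 1126 and 2254 CPM in other cells. All 10 genes were higher late in the other cells too, by 0.29 to 4.12 on the log2 scale with 20 CPM added, and epithelial genes such as Krt5, Col17a1 and Lypd3 were among them. What part epithelial RNA in the members has in these differences was not tested.

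The 10 genes of smallest p that were lower late were Ddx3y, Rpl39, Eif2s3y, Pde7b, 4732465J04Rik, Hba-a1, Atp8b4, Arrdc3, Spink1 and Ccnd3. For Ddx3y and Eif2s3y, 0 counts in day 3 and day 6 allow up to 8.72 and 14.6 CPM, so the lowest day 1 value was at least 5.28-fold and 4.02-fold higher. Ddx3y, Eif2s3y, Rpl39, Hba-a1 and Spink1 were lower by over 2 on the log2 scale in the other cells as well. Hba-a1, a hemoglobin chain of erythrocytes, was at 274, 1667, 11.6 and 19.4 CPM in neutrophils and at 1831, 3688, 216 and 142 CPM in other cells, and reads may be split with its near-identical copy Hba-a2. Rpl39 has many processed copies, so its counts are uncertain too. With the index block the edgeR adjusted p was 0.0391 for Hba-a1 and 0.0448 for Rpl39.

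The other 5 stood at lower levels in other cells than in neutrophils, and adding 20 CPM makes differences between such low values small. Without it, Ccnd3 was 12.1-fold lower late in neutrophils and 2.44-fold lower in other cells, and Pde7b 9.52-fold and 2.15-fold. Ccnd3, a D-type cyclin, stood at 514, 670.1, 78.5 and 19.4 CPM in neutrophils (log2 difference -3.39, SE 0.68, edgeR adjusted p = 0.439) and at 57.3, 80.6, 33.9 and 22.5 CPM in other cells. Pde7b, a phosphodiesterase for cyclic AMP, stood at 172, 225, 17.4 and 24.3 CPM against 12.5, 23.6, 5.23 and 11.5 CPM. Arrdc3, an arrestin-domain protein, stood at 70.8, 83.2, 8.72 and 4.85 CPM against 22.5, 19.4, 13.6 and 25.5 CPM. That both late libraries lay below both day 1 libraries was a condition for naming a gene here. It held for 1800 of the 6260 genes tested (28.8%). Atp8b4, a phospholipid flippase, was at 123, 107, 11.6 and 14.6 CPM and the uncharacterized 4732465J04Rik at 132, 180.5, 17.4 and 4.85 CPM. In the narrow set Ccnd3 was at 838, 1025, 315 and 63.2 CPM, Pde7b at 300.2, 356, 24.2 and 84.3 CPM and Atp8b4 at 213, 169, 24.2 and 42.2 CPM. The narrow set is part of the same members, so its lower late values are no separate support. The late counts are small, at 27 and 4 for Ccnd3 and 6 and 5 for Pde7b, and whether neutrophils and other cells differ in these changes was not tested.

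**Figure D4:**
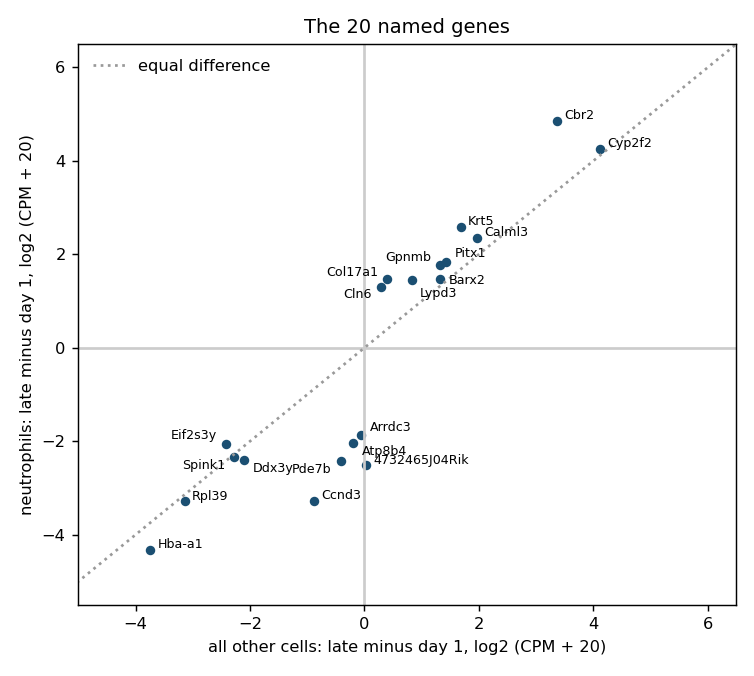
Late minus day 1 difference of log2(CPM + 20) for the 20 named genes, in neutrophils (vertical axis) and in all other cells of the same libraries (horizontal axis); the dotted line marks an equal difference. Genes higher late lie on the positive side in both, while Ccnd3, Pde7b, 4732465J04Rik, Atp8b4 and Arrdc3 lie at -0.88 to 0.026 in other cells, where the 20 CPM added draws their low values towards 0. None passed in the edgeR fit without a block, and Cbr2, Rpl39 and Hba-a1 passed with library index as a block.

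By role, none of the listed genes passed the adjusted threshold, and the counts at an unadjusted p under 0.05 are given against 3.13% higher and 5.59% lower among all genes, whose median log2 difference was 0.0425. Of 5 rule genes all were below 0, with Csf3r at 1763, 1374, 331 and 252 CPM, which the rule used. Of 7 chemoattractant receptors tested that are not in the rule, Cxcr4 and Ccr1 were lower and none higher, with a median of -0.77. Cxcr4, which retains neutrophils in the marrow, stood at 255, 189, 52.3 and 38.81 CPM (log2 difference -2.09, SE 0.49). Of 19 cytokine and pattern receptors that are not in the rule, Clec4d and Il6ra were lower and none higher, with a median of -0.55. Among all members the log2 differences were -1.87 for Ccr1, -2.02 for Clec4d and -1.81 for Il6ra. In the narrow set they were -1.13, -1.37 and -1.02, and -1.44 for Cxcr4, all smaller.

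Among inducible and stress genes, 3 of 15 early-response genes were lower (Dusp1, Fosb and Ier5) and none higher. Dusp1, a phosphatase that switches off MAP kinases, stood at 1218, 1196, 128 and 354 CPM. Its log2 difference was -2.12 among all members and -1.41 in the narrow set. Of 10 p53 targets tested, Trp53inp1, Fas and Ccng1 were lower and none higher, whereas the best known target, Cdkn1a, was at 1169, 983, 1227 and 752 CPM with a log2 difference of 0.045. Trp53inp1 and Ccng1 stood at higher CPM in other cells than in members in every library. What part RNA of other cells has in their differences was not tested. Of 11 transcription factors, Klf2, a factor of quiescent leukocytes, was lower at 203, 203, 55.2 and 34.0 CPM. Of 5 eicosanoid genes, Pla2g7 and Alox5 were lower, and of 8 genes of the suppressive list Arg2, Cd84 and Wfdc17 were, although 5 of the 8 lay above 0. Among all members the log2 differences were -1.77 for Arg2, -1.90 for Cd84, -2.33 for Wfdc17, -1.64 for Alox5 and -2.85 for Pla2g7. In the narrow set they were -0.85, -1.01, -0.91, -0.58 and -4.26, so smaller except for Pla2g7. None of 8 alarmins, 14 chemokines and cytokines, or 9 survival genes tested had an unadjusted p under 0.05.

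Other lists had medians above 0, and of all 6260 genes tested 3267 lay above 0. The median was 0.79 for the chemokines and cytokines (10 of 14 above 0), 0.83 for the list of genes known from aged or tumor neutrophils (10 of 11), 0.55 for the suppressive list (5 of 8), 0.27 for the alarmins (6 of 8), 0.34 for hypoxia and glycolysis (11 of 17) and 1.10 for the neutrophil-attracting ligands (5 of 5). No tested gene of the chemokine and cytokine, suppressive, alarmin or neutrophil-attracting lists was higher in both late libraries than in both day 1 libraries. Summed, the chemokines and cytokines stood at 5759, 5978, 1550 and 10305 CPM, highest at day 6 and lowest at day 3. The suppressive list (1058, 2118, 459 and 5633) had the same order among all members, but 52.5% of the 549 day 6 counts of its gene Arg1 were in 1 cell. In the narrow set the suppressive list stood at 1620, 2434, 775 and 1960 CPM, with day 6 below day 1 replicate 2. For the aged or tumor list both late sums were higher among all members (1972, 1634, 2422 and 3280). In the narrow set that list stood at 2539, 1486, 3027 and 2213 CPM, with day 6 below day 1 replicate 1. In other cells it stood at 1429, 936, 2119 and 1457 CPM, higher late as well. Of 8 MHC class I genes tested all were above 0, H2-K1 and Psmb9 with an unadjusted p under 0.05, and the median was 1.13. H2-K1 stood at 664.5, 464, 1527 and 2431 CPM in neutrophils, and at 747, 399, 1348 and 3037 CPM in other cells. The MHC class II genes were also above 0 in all 5 tested, with a median of 2.65. H2-Aa was high in the day 6 library alone, at 123, 304, 69.8 and 2271 CPM, and in other cells too, at 415, 188, 108 and 1611 CPM. H2-DMb1, which helps to load peptide, was higher in both late libraries at 12.3, 15.7, 49.4 and 63.1 CPM (log2 difference 2.10, SE 0.53). It was the only class II gene with an unadjusted p under 0.05. Ltf, lactoferrin, of secondary granules and also of epithelium, stood at 15.4, 172, 259 and 9019 CPM, with 55.4% of its 1859 day 6 counts in 1 cell. In day 1 replicate 2, 90.5% of its 306 counts were in 1 cell. In other cells Ltf was also higher late, at 31.5, 42.2, 259 and 1526.5 CPM. Of 10 cycling genes Mcm5, Pcna and Ccnb2 were higher at an unadjusted p under 0.05, and Mki67 lay below 0 at -1.08. Ccnb2 at day 6 (58.2 CPM) was below day 1 replicate 1 (61.5 CPM). Summed, the cycling list stood at 1114, 503, 1422 and 1019 CPM in neutrophils and at 811, 713, 1688 and 1286 CPM in other cells. Of markers of other cell types, 6 of 6 squamous markers tested were above 0 and 4 of 4 hemoglobin genes below 0.

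S100a8 had a log2 difference of -1.30 (SE 0.82) and S100a9 of -0.92 (SE 0.65), neither with an unadjusted p under 0.05. Without overlap, both were lower late among all members, as were 28.8% of all genes tested. In the narrow set S100a8 stood at 4521, 3307, 872 and 5375 CPM and S100a9 at 8598, 5135, 4141 and 9317 CPM. Those levels are given as a description, because both genes helped to choose the narrow set.

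The difference between late and day 1 was also compared between neutrophils and macrophages, as the interaction of cell type and time in an edgeR model that blocks on library. It passed an adjusted p of 0.05 for 44 of 7735 genes (0.569%), 30 positive and 14 negative, and without day 6 for none. Several of the genes of smallest adjusted p rested on single cells. Jchain, an antibody chain of plasma cells, had 94.7% and 95.8% of its neutrophil counts in the day 1 libraries in 1 cell each, and Cnfn, of cornified epithelium, had 77.8% of its day 6 counts in 1 cell. Mmp9 was spread more evenly, with a UMI in 66.3%, 78.1%, 65.1% and 45.5% of neutrophils. It stood at 492, 629, 198 and 354 CPM in neutrophils and at 83.7, 219, 21.9 and 3.12 CPM in macrophages (interaction log2 4.27, SE 0.79, edgeR adjusted p = 0.000509). In macrophages its counts were 30, 122, 1 and 2, so the late side rests on 3 counts, and the day 3 macrophages were only 11 cells with 45745 UMIs.

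Day 6 was looked at on its own in the narrow set, a comparison chosen after the data had been seen, of 23 cells of 1 library against the narrow sets of both day 1 libraries. The lone day 6 library is assumed to vary like the day 1 libraries, so the edgeR values compare these libraries rather than the days. Of 4521 genes tested, 59 were called, 39 higher and 20 lower, and 12 of the 39 had over 50% of their day 6 counts in 1 cell. To leave out genes of other cell types, the 59 were narrowed to 13 that were at least 4-fold above all other cells in the group where they were high (and, if higher at day 6, seen in at least 5 cells there). This filter reads the same values as the comparison, so the number 13 supports nothing. Prok2, Ngp, Cd177, Ifitm6, Ly6c2, Cass4, Mrgpra2b, Lcn2, Osm and Wfdc21 were higher, and Ccnd3, Pla2g7 and Cd101 lower.

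The values of 5 of the 10 higher genes were as follows. Lcn2 stood at 1801 and 738 CPM in the narrow sets of day 1 and at 6345 CPM at day 6, seen in 22 of 23 cells (log2 difference 2.33, SE 0.58, edgeR adjusted p = 0.00627). Cd177, a surface glycoprotein of secondary granules, stood at 219, 85.3 and 1244 CPM, in 18 of 23 cells. In all other cells of these libraries Cd177 stood at 287, 143 and 280 CPM, above the narrow sets of both day 1 libraries. Lcn2 and Cd177 were spread over most of the day 6 cells. Prok2, the chemokine-like prokineticin Bv8, stood at 0, 27.8 and 548 CPM, from 26 counts in 7 cells. Ngp, neutrophilic granule protein, stood at 269, 13.4 and 1075 CPM, but 58.8% of its 51 day 6 counts were in 1 cell. Osm stood at 444, 301 and 1707 CPM in 14 of 23 cells.

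Of the genes lower at day 6, Cd101, a surface protein of mature neutrophils, stood at 175 and 209 CPM and had 0 counts in 47442 UMIs at day 6, which allows up to 63.2 CPM, so day 1 was at least 2.77-fold higher. Ccnd3 stood at 838, 1025 and 63.2 CPM and Pla2g7, a phospholipase for platelet-activating factor, at 313, 591 and 21.1 CPM, from 3 and 1 counts at day 6. Day 3 held 18 cells and 41291 UMIs in the narrow set. The genes higher at day 6 did not all go 1 way there. Cd177 at 339 CPM was above both day 1 libraries, Lcn2 at 1380.4 CPM and Ngp at 48.4 CPM lay between them, and Mrgpra2b at 24.2 CPM was below both. These values rest on 14, 57, 2 and 1 counts. Of the 3 genes lower at day 6, Ccnd3 stood at 315, Cd101 at 121 and Pla2g7 at 24.2 CPM at day 3, from 13, 5 and 1 counts. The share of all genes below both day 1 libraries in this set was not counted, so these values support nothing.

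**Figure D5:**
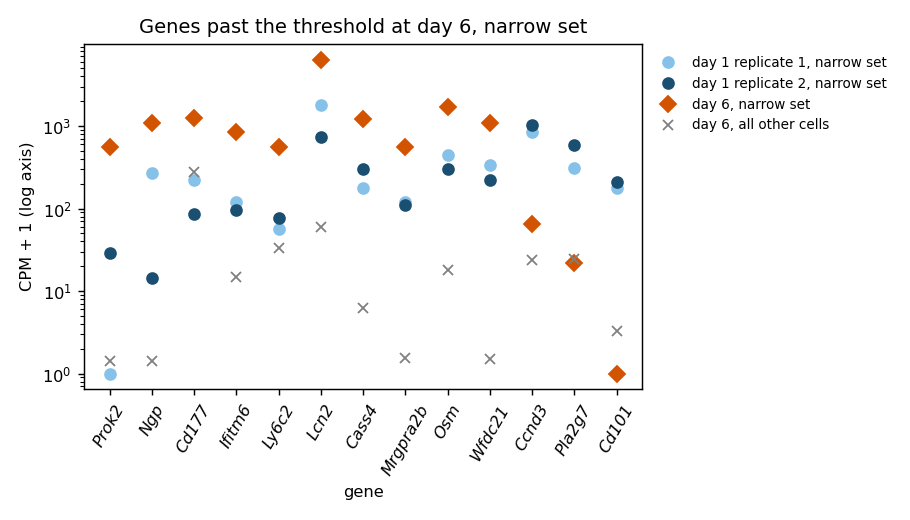
CPM plus 1 (log axis) of the 13 genes in the narrow set of day 1 replicate 1, day 1 replicate 2 and day 6 (circles and diamonds), with all other day 6 cells as crosses. Prok2, Ngp, Cd177 and Lcn2 are highest at day 6, and Cd101 had 0 counts there (plotted at 1).

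In the untreated stroma library 9 of 1095 kept cells (0.822%) met the rule, 7 of them through Il1r2 with 107 counts, and all rested on 1 or 2 of the 5 genes. None of the 9 had a UMI of S100a8 or S100a9, so these cells lack the defining markers and are not called neutrophils here. The library had another dissociation and no treatment, which cannot be told apart.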

How the data were processed

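The authors deposited raw UMI counts per barcode and gene, made with dropEst on the mouse reference GRCm38.85 and not normalized. Free RNA and doublets were not removed and stay in these counts. Here cells were filtered at 500 genes and 15% mitochondrial counts, and counts were summed per library over members (at least 10 cells) and scaled to CPM. Sums were tested with edgeR 4.0.16 in R 4.3.3 (quasi-likelihood test after TMM scaling and filterByExpr, with Benjamini-Hochberg adjustment at 0.05) after a test on simulated data, with DESeq2 1.42.0 as an alternative. Sub-groups used scanpy 1.11.5 and leidenalg 0.10.2 (1000 variable genes, 15 components, 15 neighbours, resolution 0.5, no batch correction), and figures matplotlib 3.10.9. Shares have exact 95% intervals, which cover counting error only. The members, gene lists and tests were chosen with earlier results of these data known. Named genes were the 10 in each direction with the largest change past the threshold, or, where fewer passed, those of smallest p whose groups did not overlap, beside genes of lists by role and the 20 of highest ratio over other cells. Ratios were taken with 20 CPM added. An upper limit for 0 counts is 3 counts per library.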

Additional observations from a re-analysis of the deposited data

Results flagged for a closer look

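The difference between late and day 1 differed between neutrophils and macrophages, by the interaction term in edgeR, for 44 genes. The 10 of smallest adjusted p had interaction log2 values of -5.45 for Jchain, 5.64 for Mal, 4.50 for Plet1, 3.89 for Ppbp, 5.45 for Scel, -3.39 for Igha, 4.08 for Krt23, 4.40 for Cnfn, -3.33 for the rule gene Csf3r and 4.27 for Mmp9. Csf3r was used to choose the neutrophils, so its value is a description. Under 9 other settings Jchain passed in 8, Mmp9 in 7 and Cnfn in 3. At day 6, 1 cell held 52.5% of the 2381 Ppbp counts of neutrophils. The rule for neutrophils was met by 9 cells of the normal stroma library, which the comparisons do not use.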

How the results depend on the processing

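No paired analysis was possible because only the day 1 libraries carry replicate numbers. Library index structure, which pairs libraries but not animals, was used as a block instead. With it, edgeR called 6 genes between late and day 1 neutrophils, against 0 without it. The count was 18 with DESeq2, 172 with no filter on low counts, 1 with cells thinned to 1000 UMIs and 1 in the narrow set, and 0 to 400 when 1 library was left out (20 without day 1 replicate 1, 0 without day 1 replicate 2, 175 without day 3, 400 without day 6). In the narrow set it was 59 without day 3 and 82 without day 6. The 44 genes of the comparison with macrophages became 2 with DESeq2, 27 with RLE normalization, 23 with no filter on low counts, 19 with at least 3 of the 5 rule genes and 15 in the narrow set, and 0 to 32 when 1 library was left out (19 without day 1 replicate 1, 32 without day 1 replicate 2, 26 without day 3, 0 without day 6). Of 738 values of 42 genes under other settings, 732 kept their direction. H2-Aa was 3.67 without day 3, -1.54 without day 6 and -8.48 in the narrow set without day 6 (fitted against 0 counts), S100a8 was 0.47 in the narrow set without day 3, and S100a9 was 0.098 with at least 3 rule genes, 0.056 in the narrow set and 0.45 in the narrow set without day 3. The cause was not tested. The mean share of neutrophils was lower late under all 13 alternatives. These include the ratio of neutrophils per macrophage, where day 3 (5.73) lay above both day 1 libraries (2.52 and 5.57). Late sums of 343902 and 206121 UMIs limit what can be seen for genes of few counts.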
